A study of Mus musculus with 28 samples.

Results

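Gene expression in the tibialis anterior (TA) muscle was compared between Dnm2 S619L/+ mice and wild-type (WT) mice on a placebo diet, with 4 mice in each group. The 8 mice were taken by their labels from the 28 mice analysed here. The disease mice carry the S619L mutation, which puts leucine in the place of a serine of dynamin 2, on 1 of the 2 copies of Dnm2, and the WT mice of the same cohort carry no mutation. Both groups are of the C57BL/6N strain, were fed the placebo diet in place of tamoxifen, and were 8 weeks old when the muscle was taken. The mutation is carried in every cell of the mouse and not in muscle alone. The other 8 mice of this cohort had the same 2 genotypes and were fed tamoxifen, and a second cohort holds Bin1 mck-/- mice, which lack Bin1 through a Cre driven by the muscle creatine kinase promoter, with WT mice of their own. Strand-specific libraries of polyadenylated RNA were sequenced, and the values below are counts of reads per gene scaled to a common library size (CPM). The labels give neither the sex of the mice nor a litter or day, so p-values measure the spread between mice of a group. For genes in the placebo comparison, this spread was estimated over all 16 mice of the cohort, those on tamoxifen included.

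Dynamin 2 is a large GTPase that assembles around the necks of membrane buds and cuts them, in endocytosis and in the shaping of membrane tubules. In muscle, it acts in the same pathway as amphiphysin 2, the product of Bin1, and myotubularin, the product of Mtm1. Amphiphysin 2 curves membranes into the T-tubules that carry the action potential to the calcium store. Myotubularin removes phosphate from membrane lipids. Mutations of the 3 genes cause centronuclear myopathy (CNM), in which nuclei lie in the center of small, weak fibers. S619L is a mutation of the severe form that begins at birth and is described as raising the activity of the protein.

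Muscle fibers that lose contact with their nerve are known to raise the genes of the acetylcholine receptor, and the transcription factor myogenin reads E-box motifs in their promoters. The 250 bases before the transcription start of 2 receptor genes are printed. Both genes were higher in disease mice, and both windows hold the motif marked in capitals. The capitals mark CAGCTG, an E-box core that reads the same on both strands. The sequences are from RefSeq, build GRCm38.p6, in the direction of the gene. Chrna1 lies on the minus strand at chr2:73580339-73580588 and Chrng on the plus strand at chr1:87205561-87205810.

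Chrna1: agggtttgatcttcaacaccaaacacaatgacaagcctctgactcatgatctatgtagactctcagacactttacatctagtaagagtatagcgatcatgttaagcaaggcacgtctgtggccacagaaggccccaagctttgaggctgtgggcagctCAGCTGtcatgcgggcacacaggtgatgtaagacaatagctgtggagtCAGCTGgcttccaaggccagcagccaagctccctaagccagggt
Chrng: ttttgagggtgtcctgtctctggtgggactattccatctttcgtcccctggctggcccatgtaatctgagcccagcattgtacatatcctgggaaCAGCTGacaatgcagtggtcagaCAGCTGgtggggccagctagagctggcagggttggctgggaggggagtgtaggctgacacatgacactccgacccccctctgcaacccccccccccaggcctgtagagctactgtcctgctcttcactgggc

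Each window held 2 copies of CAGCTG. Of the 32851 promoter windows of that length, 13.0% held at least 1 copy. Among the 56 windows of 32 of the 42 genes of the denervation list 14 did (25%). The remaining genes of that list, Chrnd among them, were not matched to a window. The window of Myog, a gene that was also higher, held 0 copies and is not printed. A match is a description of the letters and was not tested as a binding site.

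Libraries held 15586333 to 109710886 counts in WT and 21520228 to 41940004 in disease mice. The tissue label was checked against muscle markers: Atp2a1, the calcium pump of fast fibers, stood at 31752 to 35589.9 CPM in WT and 23723 to 34393 CPM in disease mice and did not pass the test (adjusted p = 0.612). Disease mouse 3 lay nearest to WT in 58.4% of the genes called, where the other 3 disease mice did so in 10.1% to 20.1%. Disease mouse 4 stood apart in interferon and immune genes. Fold changes moved with transcript length, from a median log2 fold change of 0.23 in the fifth of genes with the shortest exon sequence to -0.11 in the fifth with the longest. The part of length, of mouse 3 and of mouse 4 in each result was not tested beyond the values given beside it. Xist and Ddx3y put 2 female-type and 2 male-type mice in each placebo group, so that sex was balanced.

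Of 15439 genes tested, 3383 (21.9%) were called with edgeR's quasi-likelihood test at a Benjamini-Hochberg adjusted p under 0.05, and values written log2FC below are its log2 fold changes of disease against WT mice, followed by ± and their SE where both are given. Of these, 1868 (12.1% of the genes tested) were higher in disease mice and 1515 (9.81%) were lower. With an offset for the trend with length, 1303 were higher and 1673 lower, so that the share of higher genes among the calls went from 55.2% to 43.8%. Rises were larger than falls: 805 genes rose and 270 fell by more than 1 on the log2 scale, and 264 rose and 39 fell by more than 2. The CPM of the groups did not overlap in 2698 of the called genes, and in 24.9% of all genes tested. The median log2 fold change of all genes was 0.02. The counts given below for gene lists are to be read against these shares and this median, over the 1163 of 1217 list genes that passed the filter on low counts. Leaving out WT mouse 2 reduced the calls to 2034, of which 1243 were higher and 791 lower. The lower calls were also reduced without WT mouse 3 (907), disease mouse 2 (988) or disease mouse 4 (970).

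**Figure D1:**
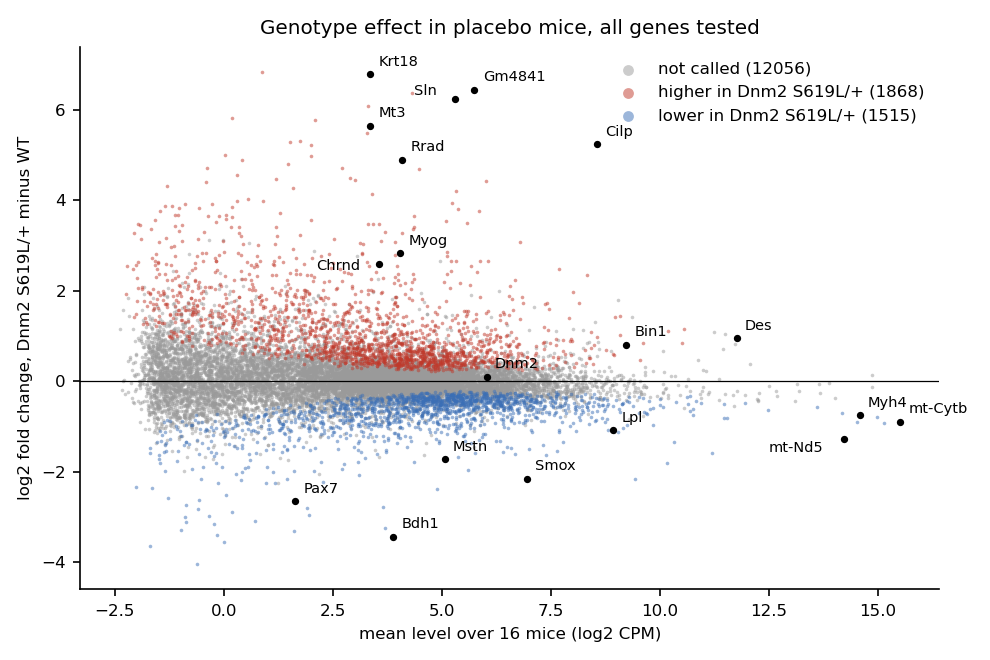
Each point is a gene, with the mean level over the 16 mice of the cohort (log2 CPM) on the horizontal axis and the log2 fold change of disease against WT mice on placebo on the vertical axis, and called genes colored by direction. Rises reach farther from 0 than falls, with 264 genes above 2 and 39 below -2.

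Of the called genes that averaged above 1 in log2 CPM and did not overlap between the groups, the 12 largest rises were those of Krt18 (6.78), Gm4841 (6.44), Sln (6.23), Gm12185 (6.08), Mt3 (5.65), Anxa8 (5.49), Cilp (5.24), Msln (4.97), Rrad (4.9), Srrm4os (4.71), Timp1 (4.69) and Sbk3 (4.48), all as log2FC. Gm4841 and Gm12185 were by far the highest in disease mouse 4, without which their log2 fold changes were 2.697 and 3.14, and most of the others are described with their groups. Sbk3, a kinase of striated muscle, had 1.04, 0.509, 1.34 and 0.804 CPM in WT mice 1 to 4 and 24.7, 19.7, 3.39 and 36.7 CPM in disease mice 1 to 4 (edgeR log2FC 4.48 ± 0.58, adjusted p = 1.20e-04), with disease mouse 3 the lowest of its group and above WT. The 12 largest falls, all smaller in size than these rises, included those of Bdh1 (-3.44), B230312C02Rik (-2.78), Pax7 (-2.65), Gm15543 (-2.23), Smox (-2.15), Pm20d2 (-2.07), BC048679 (-1.99), Myl3 (-1.95), 0610040J01Rik (-1.95) and Tecta (-1.9). Pm20d2, a peptidase, stood at 11.9, 13, 13.5 and 11.1 CPM in WT mice 1 to 4 and 4.12, 0.576, 3.44 and 3.28 CPM in disease mice 1 to 4 (edgeR log2FC -2.07 ± 0.42, adjusted p = 0.00318), and disease mouse 2 was the lowest.

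The mutated gene itself did not pass the test. Dnm2 (ENSMUSG00000033335) had 63.5, 63.2, 61 and 64.4 CPM in WT mice 1 to 4 and 70.1, 72.3, 61.9 and 65.7 CPM in disease mice 1 to 4 (edgeR log2FC 0.10 ± 0.07, adjusted p = 0.344), and the groups overlapped. The mutation is a base change that gene counts do not show, so the level of Dnm2 does not check the genotype. Mtm1 (ENSMUSG00000031337) measured 12.7 to 17.7 CPM in WT and 14 to 18.4 CPM in disease mice and overlapped between the groups (edgeR log2FC 0.08, adjusted p = 0.789, and -0.02 without WT mouse 1).

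Bin1, the tubule-forming partner, rose in each of the disease mice. Bin1 (ENSMUSG00000024381) stood at 487, 499, 505 and 508 CPM in WT mice 1 to 4 and 804, 1085, 719.6 and 887 CPM in disease mice 1 to 4 (edgeR log2FC 0.81 ± 0.15, adjusted p = 0.00177). The highest WT mouse lay well under the lowest disease mouse, which was mouse 3. The caveolae of the muscle membrane, small pits that also seed T-tubules, gave the same picture. Cav3, their structural protein in muscle, had 51.3, 51.5, 52.4 and 48.6 CPM in WT mice 1 to 4 and 89.4, 133, 79.9 and 109 CPM in disease mice 1 to 4 (edgeR log2FC 1.01 ± 0.16, adjusted p = 6.28e-04). Cavin4, the muscle member of the caveolar coat, measured 158 to 198 CPM in WT and 237 to 344 CPM in disease mice (edgeR log2FC 0.80, adjusted p = 0.00373). Other genes of endocytosis moved the opposite way: Dnm3, a second dynamin, stood at 6.36 to 8.95 CPM in WT and 3.56 to 5.16 CPM in disease mice (edgeR log2FC -0.85, adjusted p = 0.0016), and the endocytic scaffold Itsn1 at 112 to 119.6 CPM in WT and 62.5 to 90.3 CPM in disease mice (edgeR log2FC -0.64, adjusted p = 0.00179). Over the list of CNM genes and membrane remodelling, 5 of the 42 tested members rose and 6 fell (median -0.05), shares near those of all genes. Without disease mouse 3, 8 rose.

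Genes of the triad, where T-tubules meet the calcium store, moved in both directions. Of 38 members, 7 rose and 9 fell (median -0.11), and the falls were 3 without disease mouse 4 and 2 without WT mouse 2. Sln encodes sarcolipin, a small inhibitor of the calcium pump that fast muscle hardly expresses. Sln (ENSMUSG00000042045) stood at 1.02, 0.339, 0.474 and 1.43 CPM in WT mice 1 to 4 and 128, 55, 12.4 and 89.9 CPM in disease mice 1 to 4. The lowest disease mouse, mouse 3, was several times above the highest WT mouse (edgeR log2FC 6.23 ± 0.71, adjusted p = 5.92e-05). Rrad, a GTPase that holds back calcium channels, had 1.12, 0.764, 0.711 and 1.45 CPM in WT mice 1 to 4 and 34.4, 29.9, 48.2 and 20.8 CPM in disease mice 1 to 4 (edgeR log2FC 4.9 ± 0.39, adjusted p = 5.16e-06), with disease mouse 3 the highest. The auxiliary subunits of the voltage sensor rose by less: Cacng1 stood at 144 to 154 CPM in WT and 279.6 to 614 CPM in disease mice (edgeR log2FC 1.39, adjusted p = 0.00134) and Cacnb1 at 167 to 194 CPM in WT and 299 to 364 CPM in disease mice (edgeR log2FC 0.91, adjusted p = 3.85e-04). Clcn1, the chloride channel that steadies the membrane potential, fell from 243, 293, 313 and 212 CPM in WT mice 1 to 4 to 183, 168, 177 and 137 CPM in disease mice 1 to 4 (edgeR log2FC -0.67 ± 0.15, adjusted p = 0.00484). Jph1, a junctophilin that holds T-tubules to the calcium store, had 349.96 to 464 CPM in WT and 239 to 315 CPM in disease mice (edgeR log2FC -0.57, adjusted p = 0.034) and lost the call in 6 of 19 alternatives.

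Many genes of the denervation response rose in disease muscle. Of the 41 tested members of the denervation and neuromuscular junction list, 18 rose and 3 fell, with a median log2 fold change of 0.56. The 3 falls were 1 without disease mouse 4 or without WT mouse 2. Myog, the transcription factor myogenin, measured 6.64, 2.8, 1.74 and 7.19 CPM in WT mice 1 to 4 and 47.3, 40.1, 21 and 29.4 CPM in disease mice 1 to 4. All disease mice were above all WT mice (edgeR log2FC 2.83 ± 0.42, adjusted p = 3.91e-04). The 2 receptor subunits whose promoters are printed above both rose. Chrna1, the alpha subunit that binds acetylcholine, stood at 17.7, 24.1, 24.6 and 23.7 CPM in WT mice 1 to 4 and 52, 74.5, 31.4 and 40.1 CPM in disease mice 1 to 4 (edgeR log2FC 1.14 ± 0.32, adjusted p = 0.0218). Its rise was the smaller, and it lost the call in 4 of 19 alternatives. Among them were those without WT mouse 1 (1.03), WT mouse 2 (1.19) or disease mouse 2 (0.87). Chrng, the gamma subunit of the fetal receptor, had 0.152, 0.113, 0.237 and 0.134 CPM in WT mice 1 to 4 and 2.39, 0.624, 0.633 and 2.02 CPM in disease mice 1 to 4 (edgeR log2FC 2.87 ± 0.75, adjusted p = 0.00641). Adult fibers hardly express it, and the levels stayed low in disease mice too. Chrnd, the delta subunit, measured 4.66, 4.95, 6.56 and 4.84 CPM in WT mice 1 to 4 and 33.7, 58.1, 7.83 and 26.4 CPM in disease mice 1 to 4 (edgeR log2FC 2.59 ± 0.57, adjusted p = 0.0053), with mouse 3 close to WT and mouse 2 the highest. Ncam1, an adhesion molecule that spreads over denervated fibers, also had disease mouse 2 the highest and mouse 3 the lowest, with 43.5, 79.3, 11.3 and 45.3 CPM in disease mice 1 to 4 and 7.81 to 9.62 CPM in WT (edgeR log2FC 2.37 ± 0.43, adjusted p = 0.0016). Runx1, a transcription factor that sustains denervated muscle, stood at 2.02, 1.61, 0.948 and 3.66 CPM in WT mice 1 to 4 and 26.4, 22.8, 16 and 25.7 CPM in disease mice 1 to 4 (edgeR log2FC 3.36 ± 0.33, adjusted p = 1.48e-05). Gadd45a and Cdkn1a, both growth-arrest genes, stood at 20.1 to 28.6 CPM in WT and 70.4 to 105 CPM in disease mice (edgeR log2FC 1.86, adjusted p = 1.15e-04) and, for Cdkn1a, at 13 to 31.7 CPM in WT and 105 to 204 CPM in disease mice (edgeR log2FC 3.09, adjusted p = 3.49e-05). Kcnn3, the potassium channel that reappears after denervation, had 3.64 to 6.56 CPM in WT and 14.5 to 30.8 CPM in disease mice (edgeR log2FC 2.17, adjusted p = 5.97e-05). Musk, the receptor kinase that organizes the junction, overlapped between the groups, at 1.79 to 5.53 CPM in WT and 2.04 to 8.22 CPM in disease mice (edgeR log2FC 0.56, adjusted p = 0.352).

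Genes of satellite cells and myogenic regulators moved in both directions, and most did not pass the test. Satellite cells are the stem cells of muscle, and in bulk tissue fewer cells of a type cannot be told apart from less RNA per cell. Over the list of satellite cells and myogenic regulators, 6 of 37 members rose and 6 fell (median -0.06), and 3 rose without WT mouse 2. Pax7, the transcription factor that defines these cells, measured 5.73, 6.96, 3.95 and 6.18 CPM in WT mice 1 to 4 and 1.46, 1.01, 0.407 and 0.475 CPM in disease mice 1 to 4 (edgeR log2FC -2.65 ± 0.40, adjusted p = 3.17e-04). Calcr, the calcitonin receptor of resting satellite cells, stood at 0.871, 0.877, 1.26 and 1.16 CPM in WT mice 1 to 4 and 0.0451, 0.048, 0.0905 and 0 CPM in disease mice 1 to 4 (edgeR log2FC -3.4, adjusted p = 4.27e-04). Both genes were below the WT range in each disease mouse, and Calcr was near 0 there. Myf6, a regulator of mature fibers, had 60.8 to 67.5 CPM in WT and 104 to 149 CPM in disease mice (edgeR log2FC 0.98, adjusted p = 0.00215). Mymx, which fuses myoblasts and is nearly silent in adult muscle, measured 0.0101, 0, 0 and 0.0446 CPM in WT mice 1 to 4 and 1.33, 0.24, 0.362 and 0.989 CPM in disease mice 1 to 4 (edgeR log2FC 3.46, adjusted p = 0.00285). Sox11, a transcription factor of early development, stood at 0.233, 0.0566, 0.158 and 0.112 CPM in WT mice 1 to 4 and 13.3, 11.4, 5.61 and 15.1 CPM in disease mice 1 to 4 (edgeR log2FC 5.77 ± 0.46, adjusted p = 2.97e-06). It was close to 0 in all WT mice and well above them in each disease mouse.

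Among developmental sarcomere isoforms, the light chain rose and the heavy chains did not pass the test. Of 21 members, 6 rose and 1 fell (median 0.54), and 3 rose without WT mouse 2. Myl4, the embryonic light chain, had 6.12, 3.59, 4.03 and 7.5 CPM in WT mice 1 to 4 and 28.7, 34, 16.2 and 28.8 CPM in disease mice 1 to 4 (edgeR log2FC 2.31 ± 0.33, adjusted p = 2.59e-04). The embryonic heavy chain Myh3 measured 3.82 to 6.28 CPM in WT and 4.65 to 10.3 CPM in disease mice (edgeR log2FC 0.54, adjusted p = 0.138). The perinatal heavy chain Myh8 stood at 7.35 to 11.8 CPM in WT and 7.53 to 12.9 CPM in disease mice (edgeR log2FC 0.03, adjusted p = 0.935), and its fold change was -0.02 without WT mouse 2, -0.05 without WT mouse 3 and -0.13 without disease mouse 4. Both heavy chains overlapped between the groups. Tnnt2, the troponin T of heart and embryonic muscle, had 2.77 to 5.12 CPM in WT and 4.57 to 13.1 CPM in disease mice (edgeR log2FC 1.16, adjusted p = 0.021) and lost the call in 5 of 19 alternatives.

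**Figure D2:**
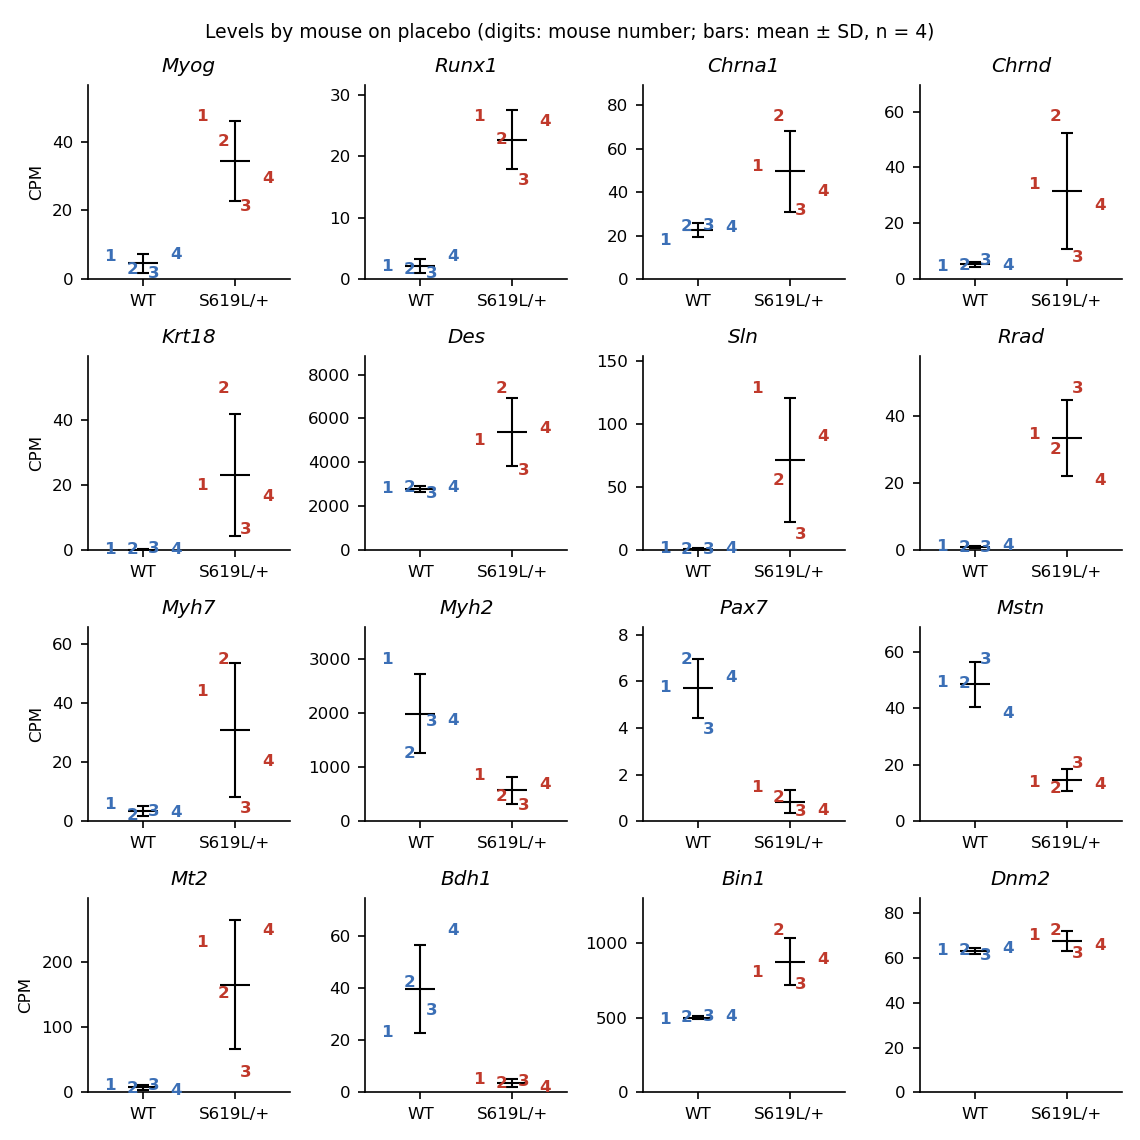
CPM of 16 genes in each WT mouse (blue) and disease mouse (red, S619L/+) on placebo, on linear axes that start at 0, with the digit giving the mouse number and the bars the mean ± SD (n = 4). Dnm2 overlaps between the groups, and disease mouse 3 is the nearest to WT for Sln, Krt18, Chrnd and Mt2.

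Of the genes of slow fibers, 9 rose, and of those of fast fibers, 9 fell. Slow fibers contract slowly on oxidative metabolism, and the TA of the mouse is almost wholly fast. Of the 20 slow-fiber genes, 9 rose and 3 fell (median 0.63), and 5 rose without WT mouse 2. Their summed level was 9126 to 10361 CPM in WT and 7547, 9453, 6490.3 and 7566 CPM in disease mice 1 to 4, lower than every WT mouse in 3 of the 4. Of the 26 fast-fiber genes, 0 rose and 9 fell (median -0.30), and 3 fell without disease mouse 4 and 4 without WT mouse 2. Tnni1, the slow troponin I, had 3.46, 1.07, 2.69 and 4.31 CPM in WT mice 1 to 4 and 24.2, 67.2, 6.24 and 20.6 CPM in disease mice 1 to 4 (edgeR log2FC 3.31 ± 0.67, adjusted p = 0.00335). Mouse 3 was the lowest disease mouse and mouse 2 the highest. Myh7, the slow myosin heavy chain, measured 5.69, 1.98, 3.4 and 2.97 CPM in WT mice 1 to 4 and 43.8, 54.8, 4.43 and 20.2 CPM in disease mice 1 to 4 (edgeR log2FC 3.09 ± 0.84, adjusted p = 0.0175). Disease mouse 3 lay within the WT range, and Myh7 lost the call in 2 of 19 alternatives, among them that without WT mouse 2 (2.91). Mice 1, 2 and 4 had several times the level of every WT mouse. Tnnt1 and Tnnc1, the slow troponins T and C, followed, with 43.8, 64.7, 12.1 and 17.5 CPM of Tnnt1 in disease mice 1 to 4 against 4.47 to 12.4 CPM in WT (edgeR log2FC 1.92, adjusted p = 0.00794). The values of Tnnc1 were 18.1, 30.1, 4.89 and 10 CPM against 1.78 to 5.32 CPM (edgeR log2FC 2.11, adjusted p = 0.0102). Tnni1, Tnnt1 and Tnnc1 each lost the call in 1 of 19 alternatives. Myl3, the light chain of slow fibers and heart, moved against them, at 108, 57.6, 47.7 and 67.4 CPM in WT mice 1 to 4 and 19.3, 24.2, 5.2 and 23.7 CPM in disease mice 1 to 4 (edgeR log2FC -1.95 ± 0.39, adjusted p = 0.00312). Myl2, another light chain of slow fibers and heart, had 1.33 to 8.83 CPM in WT and 3.57 to 38.8 CPM in disease mice (edgeR log2FC 2.02, adjusted p = 0.0386) and lost the call in 9 of 19 alternatives.

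Among the 4 adult heavy chains, compared per kilobase of exon as shares of their sum, Myh7 remained under 1% in every mouse. Its share was 0.00238% to 0.00770% in WT and 0.00910% to 0.104% in disease mice. Myh2, the chain of oxidative fast fibers (type IIA), took 1.82% to 4.88% in WT and 0.700% to 2.10% in disease mice. In CPM, Myh2 stood at 2989.7, 1255, 1838 and 1856 CPM in WT mice 1 to 4 and 844, 465, 283 and 679.6 CPM in disease mice 1 to 4 (edgeR log2FC -1.8 ± 0.32, adjusted p = 0.00129). The groups did not overlap in CPM. Myh4, the chain of the fastest fibers (type IIB), took 64.3% to 74.9% of the sum in WT and 53.6% to 79.5% in disease mice. Its CPM were 35612, 41852, 43231 and 26023 CPM in WT mice 1 to 4 and 20937, 22994, 27053 and 15974 CPM in disease mice 1 to 4 (edgeR log2FC -0.75 ± 0.24, adjusted p = 0.033). It lost the call in 8 of 19 alternatives, among them 6 of the 8 fits without 1 mouse. Log2 fold changes lay between -0.89 and -0.63 over those 8 fits. Myh1, of type IIX fibers, took 22.4% to 31.9% of the sum in WT. In disease mice, it took 19.8% in mouse 3 and 36.1%, 36.5% and 44.5% in mice 1, 2 and 4, and its CPM did not pass the test (edgeR log2FC -0.25, adjusted p = 0.451). Mylk2, the kinase of the fast light chain, fell with no overlap, from 1113 to 1301 CPM to 432 to 728 CPM (edgeR log2FC -0.96, adjusted p = 0.00152).

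Intermediate filaments tie the sarcomeres to each other and to the membrane. Of the 23 members of the keratin and intermediate filament list, 16 passed the filter on low counts, and of these 9 rose and 2 fell (median 0.79). Members near 0 in WT, such as Krt8, could pass only through other groups. This share and median therefore rest in part on the filter. Des, which encodes desmin, the filament of muscle, had 2814, 2853, 2581 and 2854 CPM in WT mice 1 to 4 and 4983, 7385, 3629 and 5526 CPM in disease mice 1 to 4 (edgeR log2FC 0.96 ± 0.20, adjusted p = 0.00409). Nes, the nestin of young fibers, measured 64.1, 91.2, 67.7 and 60.8 CPM in WT mice 1 to 4 and 180.1, 315, 96 and 260.5 CPM in disease mice 1 to 4 (edgeR log2FC 1.58 ± 0.31, adjusted p = 0.00267). The keratin pair Krt8 and Krt18, which forms filaments in simple epithelia, had almost no reads in WT muscle. Krt18 (ENSMUSG00000023043) stood at 0.142, 0.113, 0.395 and 0.112 CPM in WT mice 1 to 4 and 19.9, 49.6, 6.47 and 16.3 CPM in disease mice 1 to 4 (edgeR log2FC 6.78 ± 0.62, adjusted p = 7.80e-06). Krt8 had 0 counts in all 4 WT mice and 2.68, 7.67, 0.679 and 1.94 CPM in disease mice 1 to 4. Against a limit of 3 counts over the pooled WT reads, the disease mean was at least 239-fold higher. This bound leaves out the spread between mice. The edgeR log2 fold change, which adds a prior count, ran from 5.03 to 6.19 with 1 mouse left out. Krt80, another keratin, had 1.11 to 2.21 CPM in WT and 4.8 to 24.3 CPM in disease mice (edgeR log2FC 3.14, adjusted p = 6.62e-05). Lmna, the nuclear lamin, measured 40.4 to 74 CPM in WT and 111 to 194 CPM in disease mice (edgeR log2FC 1.38, adjusted p = 3.06e-04).

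Structural proteins of the sarcomere and Z-disc did not share a direction, with 10 of 48 members higher and 7 lower (median 0.03). The falls were 4 without disease mouse 4. Myom3, a myomesin of the M-band, stood at 42.9, 33.7, 31.1 and 61.7 CPM in WT mice 1 to 4 and 185, 185, 67.6 and 188 CPM in disease mice 1 to 4 (edgeR log2FC 1.88 ± 0.30, adjusted p = 7.65e-04), whereas Myom1, another myomesin, fell from 1984 to 2252 CPM to 1194 to 1459.9 CPM (edgeR log2FC -0.65, adjusted p = 7.45e-04). Klhl40, which stabilizes thin filaments, had 74.6 to 109 CPM in WT and 177 to 438 CPM in disease mice (edgeR log2FC 1.71, adjusted p = 0.00137). Mybph, a myosin-binding protein, measured 61.2 to 220.1 CPM in WT and 361 to 827 CPM in disease mice (edgeR log2FC 2.35, adjusted p = 0.00476). Flnc, the filamin of muscle, had 794 to 1368 CPM in WT and 1431 to 2365 CPM in disease mice (edgeR log2FC 0.86, adjusted p = 0.0451) and lost the call in 9 of 19 alternatives.

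A part of the chaperones and heat shock proteins rose. Of the 30 members of the heat shock list, 10 rose and 2 fell (median 0.34), and 6 rose without WT mouse 2. Hspb8, which works with Bag3 to clear damaged filamin, stood at 313, 346, 320.1 and 353 CPM in WT mice 1 to 4 and 790.4, 1239, 727 and 835 CPM in disease mice 1 to 4 (edgeR log2FC 1.43 ± 0.17, adjusted p = 6.58e-05). Cryab, a chaperone of desmin, had 526 to 1203 CPM in WT and 1253 to 2899 CPM in disease mice (edgeR log2FC 1.12, adjusted p = 0.00993). Hspb1 measured 18.4, 14.4, 11.9 and 27.3 CPM in WT mice 1 to 4 and 69.3, 110.2, 55.7 and 70.4 CPM in disease mice 1 to 4 (edgeR log2FC 2.07 ± 0.37, adjusted p = 0.00137). The inducible chaperone Hspa1b stood at 0.237 to 1.79 CPM in WT and 2.94 to 7.7 CPM in disease mice (edgeR log2FC 2.05, adjusted p = 0.00272). All 4 were apart between the groups in every mouse. Hspb7, another small heat shock protein, had 453 to 1609.7 CPM in WT and 951 to 3509.6 CPM in disease mice (edgeR log2FC 1.16, adjusted p = 0.0474) and lost the call in 10 of 19 alternatives.

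Transcripts of the mitochondrial genome made up a smaller share of the counts in disease muscle. The share was 19.6%, 23.6%, 25.7% and 22.9% in WT mice 1 to 4 and 13.6%, 13.97%, 17.1% and 14.9% in disease mice 1 to 4. All disease mice were below all WT mice. The means were 22.9% ± 2.56 (SD, n = 4) and 14.9% ± 1.56 (SD, n = 4), a difference of -8.06 percentage points (p = 0.0286 by a two-sided exact permutation test, which cannot give a smaller one for 4 mice against 4). Without disease mouse 1 (-7.63) or disease mouse 2 (-7.76), the exact p was 0.0571. The remaining disease mice were still below all WT mice, and fewer mice give fewer arrangements to this test. Of the 10 tested genes of this genome, 0 rose and 8 fell (median -0.89). Reads of some of these genes can be shared with nuclear copies, and genes listed near 0 were not read. The largest fall was that of mt-Nd5, a subunit of complex I, at 20641, 33519.5, 37163 and 30027 CPM in WT mice 1 to 4 and 12448, 11451, 14975 and 10929 CPM in disease mice 1 to 4 (edgeR log2FC -1.28 ± 0.18, adjusted p = 1.77e-04). mt-Co1, the catalytic subunit of cytochrome oxidase, had 43255, 55577, 62805 and 53273 CPM in WT mice 1 to 4 and 26832, 23732, 35582 and 26943 CPM in disease mice 1 to 4 (edgeR log2FC -0.93 ± 0.15, adjusted p = 5.19e-04). mt-Cytb, of complex III, measured 60344 to 79476 CPM in WT and 31714 to 42807 CPM in disease mice (edgeR log2FC -0.89, adjusted p = 1.97e-04). The log2 fold changes of mt-Nd1, mt-Nd2 and mt-Nd4 were -0.79, -0.89 and -0.70. CPM are shares of a library. With mitochondrial reads left out of the library sizes, 3384 genes were called. TMM factors were calculated anew in that fit and offset the change of library size. It therefore cannot show how the smaller mitochondrial share moved the CPM of other genes.

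Most nuclear genes of the respiratory chain did not pass the test. Of 78 members, 2 rose and 6 fell (median 0.03), fewer than the shares over all genes in both directions, and 17 fell with the offset for length. Sdha, the flavoprotein of complex II, fell from 1284 to 1554 CPM to 861 to 1174 CPM (edgeR log2FC -0.56, adjusted p = 0.00488). Atp5a1, of the ATP synthase, fell from 3361 to 3805 CPM to 2316 to 2960.0 CPM (edgeR log2FC -0.50, adjusted p = 0.00359). In the list of the citrate cycle and mitochondrial regulators, 0 of 39 rose and 18 fell (median -0.32), with 11 falls without disease mouse 4 and 8 without WT mouse 2. Mfn1, which fuses mitochondria, stood at 333, 384, 375 and 379.7 CPM in WT mice 1 to 4 and 223, 204, 260.3 and 213 CPM in disease mice 1 to 4 (edgeR log2FC -0.71 ± 0.11, adjusted p = 4.03e-04). Cs, citrate synthase, had 1139 to 1331 CPM in WT and 875 to 1128 CPM in disease mice (edgeR log2FC -0.39, adjusted p = 0.0258). It lost the call in 6 of 19 alternatives, among them 5 of the 8 fits without 1 mouse. Values lay between -0.48 and -0.35 over those 8 fits. Ppargc1a, the main activator of mitochondrial genes, measured 50.3, 62.4, 61.4 and 202 CPM in WT mice 1 to 4 and 34.8, 21.4, 35.7 and 32.7 CPM in disease mice 1 to 4 (edgeR log2FC -1.59 ± 0.48, adjusted p = 0.0279). WT mouse 4 was far above the others, and Ppargc1a gave -0.90 and was not called in its absence. It was also not called without disease mouse 2 (-1.45) or disease mouse 4 (-1.62), and lost the call in 5 of 19 alternatives in all.

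A part of the genes that take up and burn fatty acids fell. Of 38 members, 0 rose and 14 fell (median -0.34), and 9 fell without WT mouse 2. Lpl, the lipase that frees fatty acids at the capillary wall, stood at 825, 765, 835 and 757 CPM in WT mice 1 to 4 and 452, 309.6, 425 and 319 CPM in disease mice 1 to 4 (edgeR log2FC -1.08 ± 0.15, adjusted p = 1.77e-04). The WT mice spanned a narrow range and every disease mouse was below it. Etfdh, which passes electrons of beta-oxidation to ubiquinone, had 237, 261, 288 and 263 CPM in WT mice 1 to 4 and 152, 149.98, 174 and 154 CPM in disease mice 1 to 4 (edgeR log2FC -0.74 ± 0.09, adjusted p = 9.97e-05). Acadvl and Acadm, dehydrogenases of long and medium chains, followed. Acadvl measured 554 to 633 CPM in WT and 346 to 421 CPM in disease mice (edgeR log2FC -0.66, adjusted p = 2.46e-04). Acadm stood at 315 to 409.99 CPM in WT and 214 to 271 CPM in disease mice (edgeR log2FC -0.62, adjusted p = 8.93e-04). Cpt1b, the muscle gate for fatty acids into mitochondria, had 10.8 to 16 CPM in WT and 7.51 to 9.45 CPM in disease mice (edgeR log2FC -0.64, adjusted p = 0.006).

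The use of ketone bodies and branched-chain amino acids was represented by 26 genes, of which 0 rose and 9 fell (median -0.25). The largest fall was that of Bdh1, the first enzyme of ketone body use. Bdh1 measured 22.8, 42.3, 31.5 and 62.1 CPM in WT mice 1 to 4 and 4.98, 3.5, 4.16 and 1.7 CPM in disease mice 1 to 4 (edgeR log2FC -3.44 ± 0.40, adjusted p = 6.35e-05), and disease mouse 4 was the lowest. The 2 later enzymes fell by less, with Oxct1 at 499 to 599 CPM in WT and 279.96 to 477 CPM in disease mice (edgeR log2FC -0.66, adjusted p = 0.013) and Acat1 at 274 to 346 CPM in WT and 172 to 221 CPM in disease mice (edgeR log2FC -0.63, adjusted p = 7.65e-04).

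Some glycolysis and glycogen genes fell as well. Of 36 members, 2 rose and 18 fell (median -0.45), and 11 fell without WT mouse 2. Hk2, the hexokinase of muscle, stood at 472, 666, 630.2 and 1134 CPM in WT mice 1 to 4 and 396, 316, 315 and 348 CPM in disease mice 1 to 4 (edgeR log2FC -1.08 ± 0.25, adjusted p = 0.00655), with WT mouse 4 above the rest. Phka1, a subunit of phosphorylase kinase, had 792, 1006, 992 and 719.9 CPM in WT mice 1 to 4 and 488, 363, 489 and 362 CPM in disease mice 1 to 4 (edgeR log2FC -1.04 ± 0.17, adjusted p = 8.53e-04). Slc2a4, the insulin-regulated glucose transporter GLUT4, measured 676 to 748 CPM in WT and 455 to 540.2 CPM in disease mice (edgeR log2FC -0.51, adjusted p = 0.00288). Pygm, the glycogen phosphorylase of muscle, had 6202 to 8646 CPM in WT and 3784 to 5849 CPM in disease mice (edgeR log2FC -0.64, adjusted p = 0.0141) and lost the call in 2 of 19 alternatives. The clock genes, which follow the hour of sampling, were 0 of 21 higher and 4 lower (median -0.23).

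**Figure D3:**
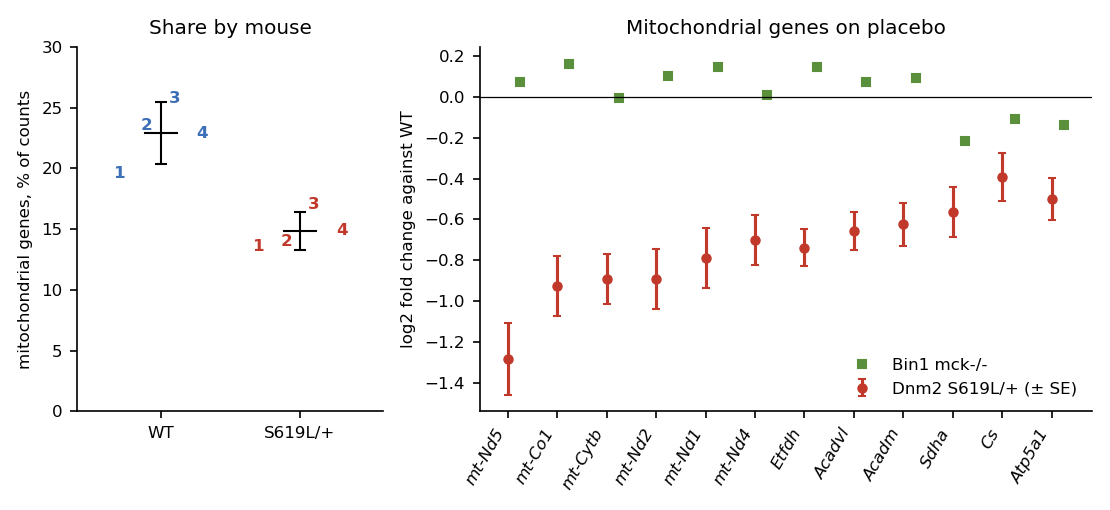
Share of counts from the mitochondrial genome in each mouse (percent) on the left, with the mean ± SD (n = 4), and log2 fold changes on placebo on the right for Dnm2 S619L/+ (red circles, with SE) and Bin1 mck-/- mice (green squares), each against the WT mice of its cohort. The 4 disease mice sit between 13.6% and 17.1% and the 4 WT mice between 19.6% and 25.7%, and the 12 genes lie below 0 in the Dnm2 model and between -0.22 and 0.16 in the Bin1 model.

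Metallothioneins, which bind zinc and copper, rose in disease muscle. Mt1 had 21.9, 13.1, 21 and 13.3 CPM in WT mice 1 to 4 and 156, 111, 30.1 and 144 CPM in disease mice 1 to 4 (edgeR log2FC 2.67 ± 0.61, adjusted p = 0.007). Mt2 measured 11.2, 5.91, 10.9 and 2.99 CPM in WT mice 1 to 4 and 229, 151, 31 and 248 CPM in disease mice 1 to 4 (edgeR log2FC 4.42 ± 0.75, adjusted p = 0.00104). Mouse 3 had the lowest level of both among disease mice and was still above WT. Mt3, the member known from brain, stood at 0.618, 0.424, 0.316 and 0.692 CPM in WT mice 1 to 4 and 24.1, 42.3, 11.2 and 44.5 CPM in disease mice 1 to 4 (edgeR log2FC 5.65 ± 0.53, adjusted p = 1.12e-05). Genes of the synthesis, breakdown and control of polyamines, which growing cells need, moved apart from each other. Smox, which oxidizes spermine, had 125, 498, 458 and 137 CPM in WT mice 1 to 4 and 67, 56.2, 108 and 42.5 CPM in disease mice 1 to 4 (edgeR log2FC -2.15 ± 0.44, adjusted p = 0.0033). WT mice 2 and 3, the male-type ones, had several times the level of WT mice 1 and 4, and the disease mice lay below all of them. Amd1, which makes the donor of their side chains, showed the same split within WT, at 20.8, 141, 136 and 15 CPM in WT mice 1 to 4 and 13.1, 14.6, 25.4 and 6.64 CPM in disease mice 1 to 4 (edgeR log2FC -2.38 ± 0.61, adjusted p = 0.0131). Its groups overlapped, and it lost the call in 3 of 19 alternatives, among them that without WT mouse 2 (-1.91). Azin1 and Oaz1, the antizyme inhibitor and the antizyme, which set the rate of the first step, both rose. Azin1 stood at 42 to 59.4 CPM in WT and 85.9 to 113 CPM in disease mice (edgeR log2FC 0.94, adjusted p = 0.00145) and Oaz1 at 14.5 to 19.2 CPM in WT and 26.9 to 33.6 CPM in disease mice (edgeR log2FC 0.86, adjusted p = 0.00271). Over the list of both pathways, 7 of 17 members rose and 4 fell (median 0.47), and 1 fell without WT mouse 2.

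Most genes of the growth factor and atrophy lists did not pass the test. Mstn, the myostatin that limits muscle growth, measured 49.2, 48.7, 57.3 and 38.2 CPM in WT mice 1 to 4 and 13.6, 11.4, 20.3 and 12.9 CPM in disease mice 1 to 4 (edgeR log2FC -1.73 ± 0.23, adjusted p = 1.54e-04). Fst, follistatin, its inhibitor, stood at 3.24, 1.44, 2.05 and 2.19 CPM in WT mice 1 to 4 and 23, 19, 9.77 and 13.8 CPM in disease mice 1 to 4 (edgeR log2FC 2.82 ± 0.32, adjusted p = 5.73e-05). Gdf11, the near relative of myostatin, rose where myostatin fell, at 5.8, 5.51, 3.16 and 7.01 CPM in WT mice 1 to 4 and 30.7, 50.1, 25.4 and 23.6 CPM in disease mice 1 to 4 (edgeR log2FC 2.55 ± 0.30, adjusted p = 7.03e-05). Fgfr4, the fibroblast growth factor receptor of young muscle, had 5.88, 3.39, 2.69 and 5.6 CPM in WT mice 1 to 4 and 0.586, 0.48, 0.407 and 0.0791 CPM in disease mice 1 to 4 (edgeR log2FC -3.31 ± 0.48, adjusted p = 2.01e-04), and disease mouse 4 was the lowest. Over the growth factor list, 7 of 38 members rose and 3 fell (median 0.03). Of the ligases, Fbxo32 stood at 219 to 270.1 CPM in WT and 176 to 358 CPM in disease mice (edgeR log2FC 0.18, adjusted p = 0.648) and Trim63 at 173 to 302 CPM in WT and 295 to 523 CPM in disease mice (edgeR log2FC 0.87, adjusted p = 0.144), with overlap in both. Over the atrophy list, 7 of 36 members rose and 4 fell (median 0.18), and 4 rose without disease mouse 4 or without WT mouse 2. Of 27 p53 targets, 8 rose and 2 fell (median 0.23). Eda2r, a receptor of the tumor necrosis factor family and a target of p53, measured 11.7, 10.6, 9.48 and 7.17 CPM in WT mice 1 to 4 and 123, 129.8, 57.3 and 134 CPM in disease mice 1 to 4 (edgeR log2FC 3.5 ± 0.30, adjusted p = 7.80e-06).

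Annexins and other genes of membrane repair gave the largest share of rises of all 43 lists apart from antigen presentation. Annexins bind membranes in the presence of calcium and form the patch over a torn fiber membrane. Of 21 members, 15 rose and 2 fell (median 0.63). Anxa2 stood at 49, 33.4, 35.5 and 79.8 CPM in WT mice 1 to 4 and 186, 171, 99.8 and 204 CPM in disease mice 1 to 4 (edgeR log2FC 1.74 ± 0.30, adjusted p = 0.0012). Anxa1 had 14.5 to 20.3 CPM in WT and 28.7 to 64.6 CPM in disease mice (edgeR log2FC 1.55, adjusted p = 0.00124). Anxa4 measured 10.9, 12.2, 10.7 and 14 CPM in WT mice 1 to 4 and 57.6, 62.9, 30.7 and 69.5 CPM in disease mice 1 to 4 (edgeR log2FC 2.2 ± 0.20, adjusted p = 8.44e-06). Anxa8, almost silent in WT muscle, stood at 0.182, 0.481, 0.553 and 0.469 CPM in WT mice 1 to 4 and 25, 30.9, 8.32 and 13 CPM in disease mice 1 to 4 (edgeR log2FC 5.49 ± 0.78, adjusted p = 2.14e-04). S100a4, a calcium-binding protein of motile cells, had 1.37, 1.41, 1.26 and 1.09 CPM in WT mice 1 to 4 and 21.9, 34.9, 6.29 and 31.8 CPM in disease mice 1 to 4 (edgeR log2FC 4.14 ± 0.44, adjusted p = 3.11e-05). Dysf, the dysferlin that brings vesicles to the tear, rose by less, at 90.9 to 107 CPM in WT and 119 to 179 CPM in disease mice (edgeR log2FC 0.63, adjusted p = 0.00536).

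The extracellular matrix list had a raised median (0.63) and 8 of 49 members rose and 2 fell, and 17 rose in a fit of the 8 placebo mice alone. Cilp, a matrix protein that binds growth factors, measured 34, 8.91, 13.4 and 30.4 CPM in WT mice 1 to 4 and 835, 1350.2, 386 and 736 CPM in disease mice 1 to 4 (edgeR log2FC 5.24 ± 0.47, adjusted p = 9.11e-06). Timp1, an inhibitor of matrix proteases, stood at 0.659, 0.481, 0.395 and 1.41 CPM in WT mice 1 to 4 and 19.5, 36.8, 7.19 and 23.1 CPM in disease mice 1 to 4 (edgeR log2FC 4.69 ± 0.67, adjusted p = 2.56e-04). Ccn2, a matricellular protein of fibrosis, had 13 to 23.4 CPM in WT and 34.1 to 128 CPM in disease mice (edgeR log2FC 2.13, adjusted p = 0.00349). Thbs4, a thrombospondin of injured muscle, measured 45.4, 45.4, 43.5 and 102 CPM in WT mice 1 to 4 and 336, 276, 120.2 and 199 CPM in disease mice 1 to 4 (edgeR log2FC 1.98 ± 0.43, adjusted p = 0.00488). Col1a1, the main fibrillar collagen, overlapped between the groups and did not pass the test, at 127 to 419 CPM in WT and 413 to 565 CPM in disease mice (edgeR log2FC 1.1, adjusted p = 0.149). Msln, which encodes mesothelin, a surface protein of the linings of body cavities, stood at 0.253, 0.339, 0.316 and 0.379 CPM in WT mice 1 to 4 and 11, 17.2, 5.43 and 13.2 CPM in disease mice 1 to 4 (edgeR log2FC 4.97 ± 0.45, adjusted p = 7.48e-06). Markers of fibro-adipogenic progenitors gave 2 rises and 1 fall of 15 tested (median 0.32), with a summed level of 1245 to 1739 CPM in WT and 1437 to 2829 CPM in disease mice. Tendon markers gave 3 rises of 11 (median 1.53), with sums of 423 to 521 CPM in WT and 419 to 684 CPM in disease mice, and mouse 4 was the lowest. Their part in the matrix genes was not tested.

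Several interferon and antigen presentation genes were highest in disease mouse 4. Of 40 interferon genes, 12 rose and 0 fell (median 0.51), and 5 rose without mouse 4, 4 without WT mouse 2 and 3 in a fit of the 8 placebo mice alone. Of 17 antigen presentation genes, 13 rose and 0 fell (median 1.80), and 4 rose without mouse 4 and 6 without WT mouse 2, and 0 in the 8 placebo mice alone. Gm4841, an interferon-inducible GTPase that can share reads with close copies, had 2.25, 3.28, 2.45 and 1.5 CPM in WT mice 1 to 4 and 24.3, 17.9, 4.34 and 789 CPM in disease mice 1 to 4. Mouse 4 was far above the other 7 mice, though the other 3 disease mice were also above WT (edgeR log2FC 6.44 ± 1.41, adjusted p = 0.00556, and 2.7 (adjusted p = 0.0146) without mouse 4). Igtp, of the same family, measured 6.0, 6.45, 4.9 and 6.18 CPM in WT mice 1 to 4 and 13.2, 11.5, 11.7 and 216 CPM in disease mice 1 to 4 (edgeR log2FC 3.4 ± 0.81, adjusted p = 0.00881, and 1.03 (adjusted p = 0.00324) without mouse 4). H2-Aa, a chain of the class II complex, had 20.6, 22, 10.6 and 21.5 CPM in WT mice 1 to 4 and 67.2, 49.7, 23.9 and 303 CPM in disease mice 1 to 4 (edgeR log2FC 2.55 ± 0.63, adjusted p = 0.0111, and 1.32 (adjusted p = 0.0527) without mouse 4). H2-K1, a class I heavy chain that can share reads with other class I genes, measured 60.5, 58.6, 46 and 64.7 CPM in WT mice 1 to 4 and 85.7, 72.2, 90.6 and 559.9 CPM in disease mice 1 to 4. Its log2 fold change was 1.81 (adjusted p = 0.0204) with all mice and 0.53 (adjusted p = 0.019) without mouse 4. It lost the call in 6 of 18 alternatives, among them those without WT mouse 2 (1.84) and WT mouse 3 (1.74). B2m, the light chain of class I, gave 1.59 (adjusted p = 0.0205) with all mice and 0.53 (adjusted p = 0.0249) without mouse 4. It also lost the call in 6 of 18 alternatives, among them those without WT mouse 2 (1.58) and WT mouse 3 (1.51). Gm4841 lost it in 3 of 18, H2-Aa in 3 of 19, Igtp in 2 of 18 and Gm12185 in 1 of 17. DESeq2 gave no adjusted p for Gm4841, Gm12185, Igtp, H2-K1 and B2m. Cxcl10, a chemokine induced by interferon, did not rest on mouse 4, at 0.0912, 0.0848, 0 and 0.0223 CPM in WT mice 1 to 4 and 1.58, 2.49, 3.44 and 6.64 CPM in disease mice 1 to 4 (edgeR log2FC 4.9 ± 0.63, adjusted p = 3.32e-05, and 4.41 (adjusted p = 4.96e-05) without mouse 4).

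Some macrophage markers rose too. Of 26 members, 13 rose and 0 fell (median 1.37), but 2 rose without disease mouse 4 and 6 without WT mouse 2. The summed level of the list was 93.0 to 149 CPM in WT mice and 280 CPM, 225 CPM, 147 CPM and 613 CPM in disease mice 1 to 4, so that mouse 3 lay within the WT range. Lyz2, lysozyme, stood at 43.7, 40.1, 26.9 and 38.6 CPM in WT mice 1 to 4 and 83.7, 80.1, 44.4 and 203 CPM in disease mice 1 to 4 (edgeR log2FC 1.45 ± 0.37, adjusted p = 0.0125). Lgals3, the galectin of activated macrophages, had 3.42, 3.42, 3.48 and 4.42 CPM in WT mice 1 to 4 and 18.9, 18.2, 10.6 and 29.5 CPM in disease mice 1 to 4 (edgeR log2FC 2.37 ± 0.35, adjusted p = 3.30e-04, and 2.09 (adjusted p = 0.00108) without mouse 4). Of the 26 markers of lymphocytes and granulocytes, 8 were tested, 1 rose and 0 fell, and their sum was 363 CPM in mouse 4 and 23.7 to 105 CPM in the other 7 mice. Complement genes gave 4 rises of 18 (median 0.71), and 1 without mouse 4 or with the offset for length. The part of these cells in the interferon, annexin and matrix genes was not tested.

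Many markers of the vessel wall fell. Of the 25 endothelial and pericyte markers, 1 rose and 14 fell (median -0.76), and 9 fell without disease mouse 4. Their summed level was 2657, 2461, 2272 and 3109 CPM in WT mice 1 to 4 and 1489, 1172, 2022 and 1063 CPM in disease mice 1 to 4, with no overlap. Flt1, a receptor of vascular endothelial growth factor, measured 146, 182, 179 and 129.5 CPM in WT mice 1 to 4 and 71.7, 42.5, 76.4 and 36.7 CPM in disease mice 1 to 4 (edgeR log2FC -1.48 ± 0.21, adjusted p = 2.46e-04). Rgs5, a marker of pericytes, stood at 701, 753, 752 and 843 CPM in WT mice 1 to 4 and 375, 339.7, 471 and 209 CPM in disease mice 1 to 4 (edgeR log2FC -1.13 ± 0.18, adjusted p = 6.66e-04). Pecam1, a junction protein of endothelium, had 152, 129, 111 and 206 CPM in WT mice 1 to 4 and 76.1, 60.4, 118 and 60.5 CPM in disease mice 1 to 4 (edgeR log2FC -0.92 ± 0.21, adjusted p = 0.00676). Disease mouse 3 lay within the WT range of Pecam1, and the other 3 disease mice were below it. Pecam1 lost the call in 1 of 19 alternatives. Cdh5, the cadherin of endothelium, measured 128 to 238 CPM in WT and 47.7 to 160.4 CPM in disease mice (edgeR log2FC -1.08, adjusted p = 0.0171) and lost the call in 4 of 19 alternatives.

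Of the remaining lists, ribosomal proteins gave 16 rises and 0 falls of 54 tested (median 0.38), but 3 rises with the offset for length, 4 without disease mouse 4 and 3 without WT mouse 2. They are short transcripts, and their part in the trend with length was not tested. Proteasome subunits gave 5 rises of 33, 1 with the offset for length and 3 without WT mouse 2. Autophagy and lysosome genes gave 10 rises and 3 falls of 48 (median 0.08), and 6 rises without disease mouse 4, without WT mouse 2 or with the offset. The integrated stress and unfolded protein response gave 6 rises and 1 fall of 35. Cell cycle genes gave 8 rises and 1 fall of 39, with 2 rises without disease mouse 4 or without WT mouse 2. Semaphorins and axon guidance genes gave 6 rises and 8 falls of 43, with 2 and 4 without disease mouse 4 and 2 and 3 without WT mouse 2. Markers of Schwann cells (1 rise and 1 fall of 15) and of cartilage and bone (2 and 1 of 18) had few calls. Adipocyte markers gave 1 rise and 2 falls of 14 (14.3% lower), and erythroid markers 0 and 2 of 9 (22.2% lower, median -0.63). Both shares of falls were above the 9.81% over all genes, on 2 genes each. The adipocyte markers summed to 2771 to 4286 CPM in WT and 950 to 2322 CPM in disease mice. Their median log2 fold change went the other way, at 0.59, and was -0.59 without disease mouse 3. Muscle identity markers gave 1 rise and 3 falls of 15, with 1 fall without disease mouse 4 and 0 without WT mouse 2, and summed to 167101 to 199364 CPM in WT and 130947 to 191743 CPM in disease mice.

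**Figure D4:**
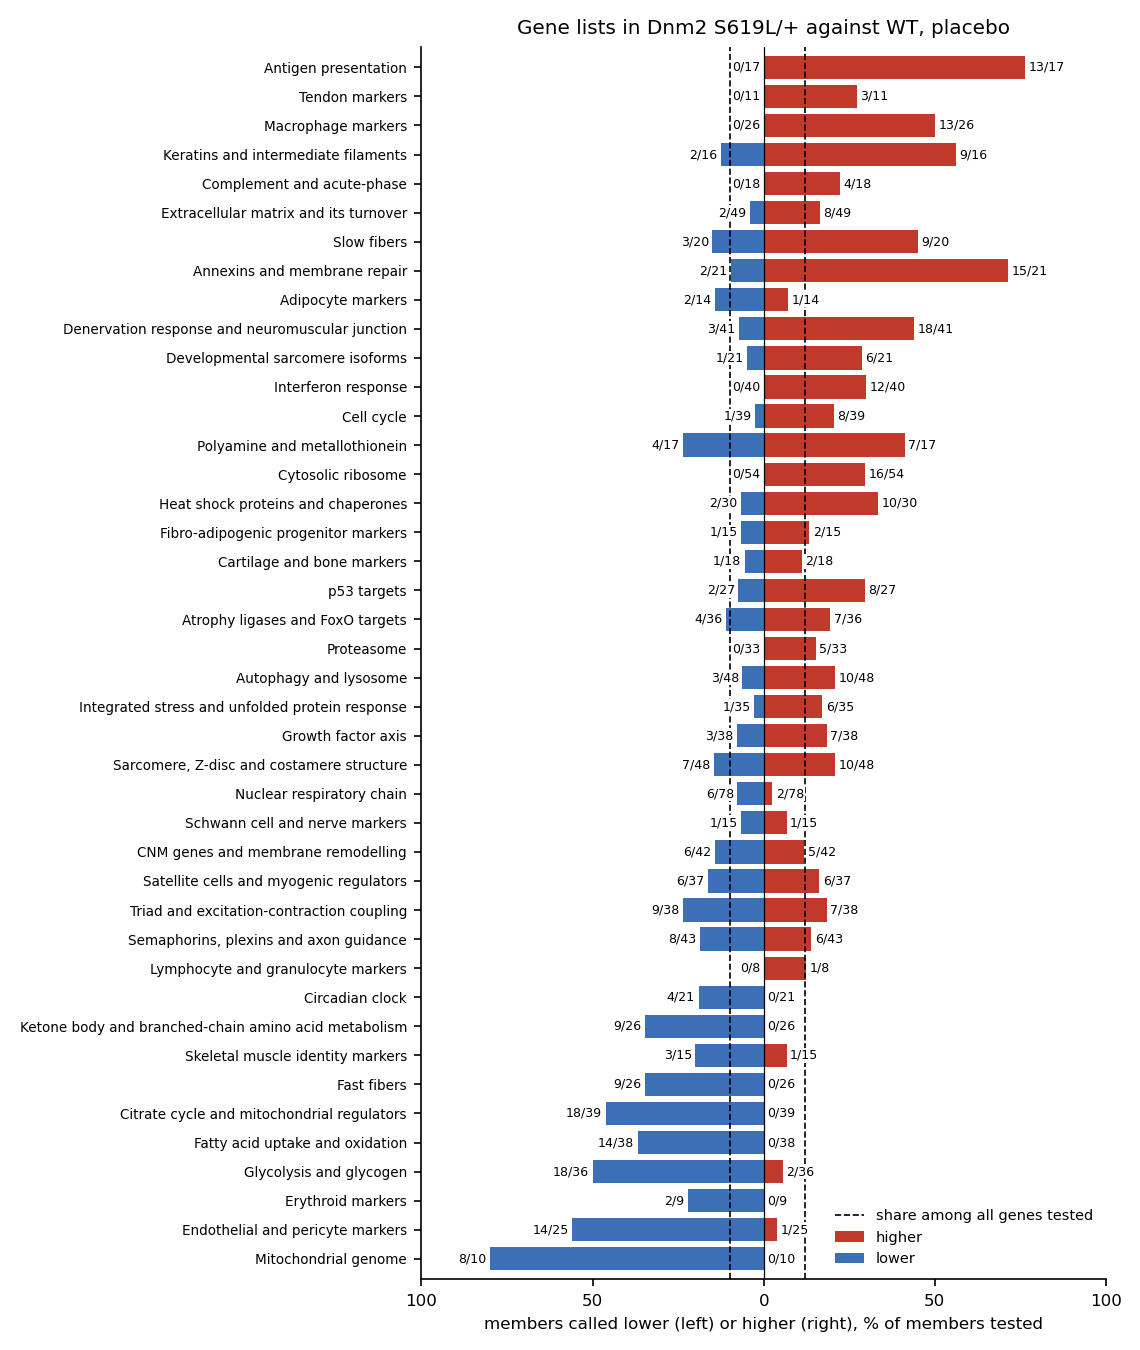
Share of the tested members of 42 gene lists called higher (red, right) and lower (blue, left) in disease mice on placebo, in percent, with the counts beside the bars and dashed lines at the shares over all genes, 12.1% and 9.81%. Lists are ordered by their median log2 fold change, from antigen presentation (1.80) to the mitochondrial genome (-0.89).

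The 8 mice of the same genotypes on tamoxifen shared no animal with the placebo mice. Among them 417 genes (2.7%) were called, and 182, 203, 228 and 260 without disease tamoxifen mouse 1 and WT tamoxifen mice 1, 2 and 3. The WT mice on tamoxifen were 2 female-type and 2 male-type, and the disease mice 4 female-type, and with a term for sex 469 genes were called. Of the 417 calls, 336 were also called on placebo, 80.6% of the tamoxifen calls and 9.93% of the placebo calls, and all 336 had the same direction. Of all placebo calls, 85.8% had the same sign on tamoxifen, where 68.1% of all genes had. Across genes, which are not independent replicates, the log2 fold changes of the diets had a Pearson correlation of 0.467 and a Spearman correlation of 0.421.

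Some leading genes were called on both diets, and none of those named here passed the test of the difference between the diets. Sln was 6.23 on placebo and 5.67 (adjusted p = 4.31e-04) on tamoxifen on the log2 scale. Krt18 was 6.78 and 6.51 (adjusted p = 5.53e-05). Rrad was 4.9 and 4.55 (adjusted p = 2.46e-05). Myog was 2.83 and 2.99 (adjusted p = 0.00176), and Chrna1 1.14 and 2.45 (adjusted p = 0.00139). Bin1 was 0.81 and 0.61 (adjusted p = 0.0416). Mstn was -1.73 and -1.39 (adjusted p = 0.00357), and B230312C02Rik, named only by its clone, -2.78 and -2.98 (adjusted p = 9.93e-05). In the denervation list, 11 genes rose on tamoxifen and 0 fell (median 0.54).

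The test of the difference between the diets called 40 genes (0.259%), 35 of them with a higher value on placebo. Of the 40, 39 were called on placebo and 4 on tamoxifen. At an unadjusted p under 0.05 there were 2090. With a term for sex, all 40 kept the call and 140 were called in all. The number of calls rests on single mice and ran from 1 without WT tamoxifen mouse 1 to 293 without disease placebo mouse 3. On placebo, leaving out WT mouse 1, 2 or 3 gave 2, 5 or 5 calls, and leaving out disease mouse 1, 2 or 4 gave 3, 4 or 4. On tamoxifen, omission of WT mouse 2, 3 or 4 gave 2, 24 or 16 calls, and that of disease mouse 1, 2 or 3 gave 3, 3 or 7. Genes of membrane repair and matrix were among the 40. Anxa8 was 5.49 on placebo and 0.18 (adjusted p = 0.902) on tamoxifen, a difference of 5.31 (adjusted p = 0.039). Anxa4 was 2.2 and 0.54, a difference of 1.66 (adjusted p = 0.0248). S100a4 was 4.14 and 0.81, a difference of 3.33 (adjusted p = 0.0306). Timp1 was 4.69 and -0.44, a difference of 5.13 (adjusted p = 0.0248). Thbs4 was 1.98 and -1.16, a difference of 3.14 (adjusted p = 0.047). The growth factors Fst and Gdf11 differed by 2.26 (adjusted p = 0.047) and 2.91 (adjusted p = 0.0168). Mt3 was 5.65 on placebo and 0.54 on tamoxifen, a difference of 5.11 (adjusted p = 0.0115), and Runx1 3.36 and 0.66, a difference of 2.7 (adjusted p = 0.0248). Msln differed by 3.11 (adjusted p = 0.039) and was called on both diets. Of fatty acid genes, Lpl and Etfdh differed by -1.11 (adjusted p = 0.047) and -0.70 (adjusted p = 0.047). Their values on tamoxifen were 0.03 and -0.04. A difference between the diets does not say which genotype moved. Mean CPM of Timp1 in WT and disease mice were 0.735 and 21.6 on placebo and 37.8 and 27.9 on tamoxifen. For Runx1 they were 2.06 and 22.7, then 21.4 and 34.0, and for Lpl 796 and 376, then 383 and 391. WT mice moved more than disease mice in these genes. For Mt3 the means were 0.513 and 30.5, then 3.87 and 5.66. Disease mice moved more in CPM, whereas WT mice moved by the larger factor. For the mitochondrial genes named above the difference did not pass the test, with mt-Nd5 at -1.28 on placebo and -0.56 (adjusted p = 0.0992) on tamoxifen.

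**Figure D5:**
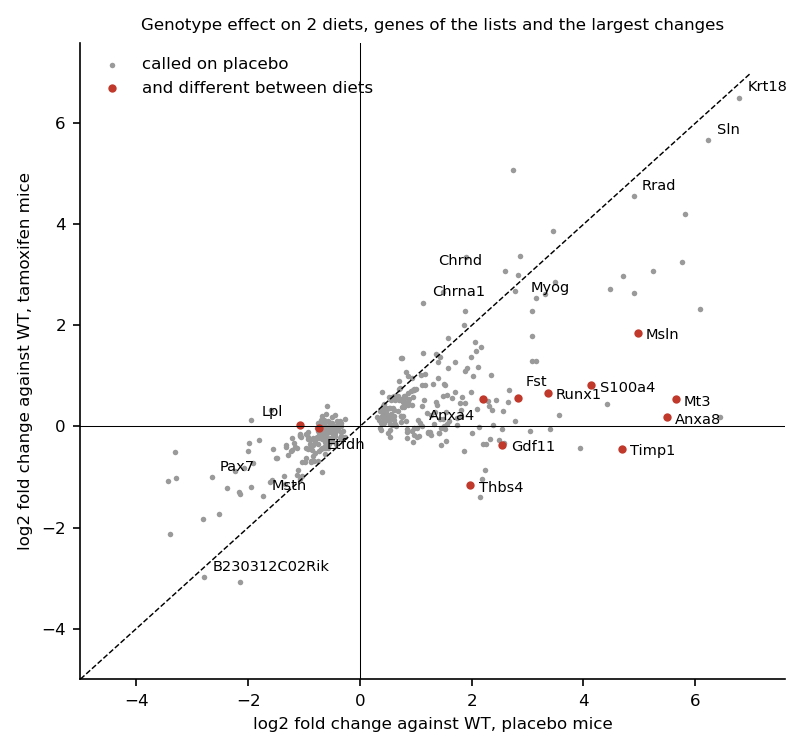
Log2 fold change of disease against WT mice on placebo (horizontal) and on tamoxifen (vertical) for 403 genes called on placebo that belong to the lists or to the largest changes, with 12 genes that differ between the diets in red and a dashed line of equal change. Sln, Krt18 and Rrad lie near the line, whereas Timp1, Anxa8 and Mt3 lie near 0 on the vertical axis.

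The Bin1 mck-/- mice were compared with their own WT mice on placebo. RNA was fragmented for 8 min there and for 2 min in the Dnm2 cohort, with inputs of 350 ng and 300 ng, so that protocol and model cannot be told apart in a difference of effects. Of the genes tested there, 2.61% were called. Of the 14572 genes tested in both cohorts, 273 were called in both, 8.33% of the Dnm2 calls and 71.7% of the Bin1 calls, and 272 of these had the same sign. The exception was Bin1, the gene deleted, at -3.26 (adjusted p = 7.11e-10) in its own model. Of the Dnm2 calls tested in both cohorts, 86.2% had the same sign in the Bin1 model, where 67.8% of all genes had. Across genes, which are not independent replicates, the Pearson correlation of the log2 fold changes was 0.590 and the Spearman correlation 0.513.

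The test of the difference between the models called 50 genes (0.312%), 23 with a higher and 27 with a lower effect in Dnm2 S619L/+ mice, and 48 of them were called there and 3 in the Bin1 model. At an unadjusted p under 0.05 there were 2167. The number ran from 13 without WT mouse 3 of the Dnm2 cohort to 154 without disease mouse 3. Leaving out disease mouse 1, 2 or 4 gave 28, 21 or 24 calls, and leaving out WT mouse 2 gave 17. In the Bin1 cohort, omission of Bin1 mck-/- mouse 2 or 3 gave 21 calls each, and that of WT mouse 6, 7 or 8 gave 32, 16 or 19. Mitochondrial transcripts and fatty acid genes were among those with a lower effect in the Dnm2 model. Mitochondrial genes made up 19.6% to 25.7% of the counts in WT mice of the Dnm2 cohort and 7.86% to 9.595% in those of the Bin1 cohort, and the part of this gap in the differences was not tested. Dnm2 S619L/+ mice, at 13.6% to 17.1%, were above all 12 mice of the Bin1 cohort. mt-Nd5 was -1.28 in the Dnm2 and 0.08 in the Bin1 model, a difference of -1.37 (adjusted p = 0.0051). mt-Co1 was -0.93 and 0.16, a difference of -1.1 (adjusted p = 0.0101). mt-Cytb, mt-Nd1 and mt-Nd2 differed by -0.90 (adjusted p = 0.0261), -0.94 (adjusted p = 0.0488) and -1.0 (adjusted p = 0.0261). Lpl was -1.08 and 0.16, a difference of -1.25 (adjusted p = 0.0113). Etfdh, Acadm and Acadvl differed by -0.89 (adjusted p = 0.0061), -0.72 (adjusted p = 0.0357) and -0.73 (adjusted p = 0.0313). Bdh1 was -3.44 and 0.10, a difference of -3.54 (adjusted p = 0.00905). Gdf11 was 2.55 and -0.25, a difference of 2.79 (adjusted p = 0.00728). Flt1 was -1.48 and -0.32, a difference of -1.17 (adjusted p = 0.0478). Annexins were called in both models, such as Anxa2 at 1.74 and 1.73 (adjusted p = 0.0179) and Anxa4 at 2.2 and 1.73 (adjusted p = 0.0136). The difference of Anxa2 was 0.00 (adjusted p = 1) and that of Anxa4 0.45 (adjusted p = 0.603). Sln was 6.23 and 4.52 (adjusted p = 0.0119), Rrad 4.9 and 4.65 (adjusted p = 0.00522), and Cilp 5.24 and 4.02 (adjusted p = 0.00855), and none of the 3 passed the test of the difference, with values of 1.7 (adjusted p = 0.404), 0.23 (adjusted p = 0.91) and 1.21 (adjusted p = 0.389).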

How the data were processed

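RNA sequencing of TA muscle gave gene counts of 16 mice of the Dnm2 cohort and 12 of the Bin1 cohort, in 7 groups of 4 taken from the labels. The tables deposited by the authors hold raw counts, whole numbers of reads for each Ensembl gene, with nothing scaled. The submitters' processing notes name bcl2fastq 2.20.0.422, cutadapt 1.10, Bowtie 1.2.2, STAR 2.5.3, HTSeq 0.6.1p1 and the mouse build mm39, and the strand setting of the counting is not given in the sources used here. Of the 55416 identifiers of the Dnm2 table, 52083 were named with the GENCODE annotation, and the 4 lines of the Bin1 table that name no gene, with 22.0% to 30.8% of its counts, were left out. Promoter windows are those of RefSeq for GRCm38.p6.

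Counts were tested with edgeR 4.0.16 in R 4.3.3 (TMM, default filter on low counts, robust quasi-likelihood test, prior count of 2 for log2 fold changes, Benjamini-Hochberg adjusted p under 0.05) in 1 fit of the 16 mice of the Dnm2 cohort. CPM are scaled by TMM library sizes. The difference between the models came from a joint fit of all 28 mice. The mitochondrial share was compared with an exact permutation test. Pairs of replicates differed by more than counting error, and no library was taken for a second deposit of another. The test was first tried on simulated data.

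The 43 gene lists and the rule for named genes were chosen with earlier results of these data known, and no list was tested. Named are Dnm2, Bin1 and Mtm1, the 12 largest rises and falls of genes that were called, averaged above 1 on the log2 CPM scale and did not overlap, the 8 largest gains and losses in CPM, and in each list its core members and the 5 called members with the smallest p. The text gives values for 129 genes at most, a part of those the rule allows, and some genes that the rule names are not reported here. Alternatives were DESeq2 1.42.0, RLE normalization, no filter, the filter of the study (more than 10 reads in 90% of the mice), only the mice compared, the replicate number as a block, thinned libraries, library sizes without mitochondrial reads, sex as a term and leaving out each mouse. The offset for length, and the sex term for the tamoxifen mice and for the difference between diets, were chosen after the data were seen. Disease mouse 3 and mouse 4 are disease placebo mice unless another group is named. Genes of interferon-inducible GTPases, class I chains, metallothioneins and mitochondria can share reads with close copies.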

Additional observations from a re-analysis of the deposited data

Results flagged for a closer look

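Among 258 groups of 4 mice (129 genes in 2 groups), 23 held a mouse whose distance from the nearest other, as a share of the range of its group, exceeded Dixon's 95% limit, which chance exceeds in about 1 of 20 groups. Several were disease mouse 4 in interferon and class I genes, where it was the highest: Gm12185 at 133 CPM, Igtp at 216 CPM, H2-K1 at 560 CPM and B2m at 855 CPM. Disease mouse 3 was the lowest of its group for Myl3 (5.20 CPM), Myh1 (7105 CPM), Myom3 (67.6 CPM), Mybph (361 CPM) and Eda2r (57.3 CPM) and the highest for Etfdh (174.0 CPM). Disease mouse 2 was the lowest for Ppargc1a (21.4 CPM) and Pm20d2 (0.576 CPM). In WT, mouse 1 stood apart for Cavin4 (198 CPM), Chrna1 (17.7 CPM), Mfn1 (333 CPM) and Anxa8 (0.182 CPM), mouse 3 for Des (2581 CPM), Krt18 (0.395 CPM) and H2-Aa (10.6 CPM), and mouse 4 for Ppargc1a (202 CPM), Dysf (107 CPM), Thbs4 (102 CPM) and Lgals3 (4.42 CPM).

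The genotype effect differed between the diets by the test of the difference in edgeR for genes named in the report. The placebo effect minus the tamoxifen effect, on the log2 scale, was 2.70 for Runx1, 5.11 for Mt3, 2.26 for Fst, 2.91 for Gdf11, 1.66 for Anxa4, 5.31 for Anxa8, 3.33 for S100a4, 5.13 for Timp1, 3.14 for Thbs4 and 3.11 for Msln, and -0.70 for Etfdh and -1.11 for Lpl. The sexes were unequal among the tamoxifen mice, and their part in these values was not tested beyond the fit with a term for sex, in which all 40 genes called kept the call.

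The effect of the Dnm2 model minus that of the Bin1 model was 4.06 for Bin1, the gene deleted in the second, 2.79 for Gdf11 and 7.07 for Gm4841, by far the highest in disease mouse 4. It was -0.90 for mt-Cytb, -1.095 for mt-Co1, -0.94 for mt-Nd1, -0.998 for mt-Nd2, -1.37 for mt-Nd5, -0.89 for Etfdh, -1.25 for Lpl, -0.72 for Acadm, -0.73 for Acadvl, -3.54 for Bdh1, -2.57 for Gm15543 and -1.17 for Flt1. Library protocol and model cannot be told apart in these values.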

How the results depend on the processing

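Placebo calls were 3383 and lay between 2380 and 4122 under the 11 alternatives that kept all 8 mice, with 1 direction for every gene named. Leaving out 1 mouse gave 2034 to 3792 calls, 1243 to 2125 higher and 791 to 1667 lower, the fewest without WT mouse 2. Of the 129 named genes that were tested, 119 were called, 96 kept the call in each of the 19 alternatives that gave them a value (16 for Mymx, the fewest) and 23 lost it in at least 1. The fold change reversed for Mtm1 without WT mouse 1 (-0.017; highest 0.15) and for Myh8 without WT mouse 2 (-0.015), WT mouse 3 (-0.047) or disease mouse 4 (-0.13; highest 0.15), neither of them called. Tamoxifen calls (417) were 918 with DESeq2 and 182 to 623 with 1 mouse left out. The 40 calls of the difference between diets were 20 with RLE normalization, 16 with the filter of the study, 10 with the replicate block, 140 with sex as a term, 322 with DESeq2 and 1 to 293 with 1 mouse left out. The 50 calls of the difference between models were 86 with only the 16 placebo mice, 228 with DESeq2 and 13 to 154 with 1 mouse left out. The cause of these moves was not tested. The mitochondrial difference stayed between -9.19 and -7.13 percentage points with 1 mouse left out, and without disease mouse 1 (-7.63) or 2 (-7.76) the exact p was 0.0571. The remaining disease mice were still below all WT mice. Depth limits genes of low level, such as Chrng and Mymx, to few counts a mouse.

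Samples that share a replicate number were not shown to be paired: the correlations of WT and disease mice with the same number were 0.154, 0.142, 0.0507 and 0.0271, and not every mouse correlated best with its own number. With the replicate number as a block, 2843 genes were called on placebo in the 16 mice and 2380 in the 8.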
